A study of Mus musculus with 5 samples.

Results

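Small RNA of the testis was examined for 8 mature miRNAs of the imprinted Dlk1-Dio3 region on mouse chromosome 12: mmu-miR-127-3p, mmu-miR-434-3p, mmu-miR-136-5p, mmu-miR-379-5p, mmu-miR-411-5p, mmu-miR-411-3p, mmu-miR-541-5p and mmu-miR-369-3p (the prefix is dropped from here on). They were taken as a list of names, put together with earlier results of these data known. They are 8 of the 717 mature miRNAs of the deposited count sheet that remained when repeats of an identical most abundant sequence were left out. The study set 3 libraries from Mtdh-/- mice against 2 libraries from wild-type mice. The Mtdh-/- mice are deficient in exon 3 of Mtdh, which encodes metadherin. All libraries came from testes of C57BL/6 mice aged 6 months. The labels do not say that the libraries of a genotype came from separate animals, so each p-value reflects the spread among these samples alone, and that spread may be technical. Mtdh itself is not a miRNA and was not measured, so the genotype labels were not checked by these files. In bulk tissue, fewer cells of a type and less RNA per cell cannot be told apart.

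As background, the region is expressed by parental origin. The paternal chromosome makes the mRNAs Dlk1, Rtl1 and Dio3, while the maternal chromosome makes a series of noncoding RNAs, among them Meg3, an antisense transcript of Rtl1, Rian and Mirg, from which many small hairpins are cut. Imprinting is set by a region that is methylated in the male germline, and the miRNAs are best known from embryo, placenta and brain. A miRNA pairs with its targets mainly through its seed, bases 2 to 8 from the 5′ end, and each hairpin can give a miRNA from its 5p arm, its 3p arm or both.

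The mature sequences of the 8 miRNAs show which seeds these miRNAs supply. They are the RefSeq sequences of build GRCm38.p6, all read from the plus strand of chromosome 12, written 5′ to 3′ with the seed in capitals, and each was identical to the mature sequence in the deposited sheet. miR-379-3p, which is not one of the 8, is added because of its seed.
miR-127-3p: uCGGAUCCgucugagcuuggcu
miR-434-3p: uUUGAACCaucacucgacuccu
miR-136-5p: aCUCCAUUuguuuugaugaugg
miR-379-5p: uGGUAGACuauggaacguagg
miR-411-5p: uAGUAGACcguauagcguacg
miR-411-3p: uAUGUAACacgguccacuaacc
miR-379-3p: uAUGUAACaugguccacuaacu
miR-541-5p: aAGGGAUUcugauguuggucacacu
miR-369-3p: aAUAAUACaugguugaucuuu

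The 8 miRNAs had 8 different seeds. The single shared seed was that of miR-411-3p, which no other miRNA in the sheet had except miR-379-3p, from the same arm of the neighbouring hairpin. Between these 2 the substitutions were U10C and U22C, counted from 1 at the 5′ end with the base of miR-379-3p first, so both lie outside the seed. The 5p arms of the same 2 hairpins differed within the seed. From miR-379-5p to miR-411-5p the 7 substitutions were G2A, U9C, A10G, G12A, G13U, A15G and G20C, and the first of them falls in the seed.

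The hairpin of miR-411 gives 2 of the 8 miRNAs. Its RefSeq sequence (GRCm38.p6, chromosome 12, 109710175 to 109710256, plus strand) is shown with both mature arms in capitals, miR-411-5p first and miR-411-3p second.
Mir411: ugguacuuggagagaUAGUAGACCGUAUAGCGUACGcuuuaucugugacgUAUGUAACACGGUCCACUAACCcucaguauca

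In GRCm38 with GENCODE M21 annotation the hairpins lay in 3 stretches. Mir127 (109592846 to 109592915), Mir434 (109594506 to 109594599) and Mir136 (109595327 to 109595388) lay opposite an exon of Rtl1, on the other strand. As background, miR-127 and miR-136 are fully complementary to the Rtl1 mRNA and cut it in the mouse. Mir379 (109709060 to 109709125) and Mir411 lay 116 and 117 kb downstream of Mir127, between Rian and Mirg and in no annotated gene. Mir541 (109742409 to 109742498) lay in an intron of Mirg, 150 kb from Mir127, and Mir369 (109743418 to 109743496) in an exon of Mirg, 151 kb from Mir127. The hairpins from Mir379 to Mir410 are known in rat neurons as a group induced by activity, and miR-369-3p has been described in human cells as binding AU-rich elements of mRNAs.

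Counts of miRNAs totalled 720259, 118475 and 258433 in Mtdh-/- 1, 2 and 3, and 198640 and 474839 in wild type 1 and 2. The 8 miRNAs held 923, 286 and 680 of those counts in Mtdh-/- 1, 2 and 3, and 228 and 944 in wild type 1 and 2. CPM are counts scaled to a common total of miRNA counts. The level of 3 counts, the limit that a true count of 0 allows, was between 4.17 and 25.3 CPM, highest in Mtdh-/- 2. The smallest count above 0 was 2, so a 0 may stand for a lone tag, and the limit would then be higher. Among the pairs of libraries compared, likeness did not follow genotype, and no pair within Mtdh-/- was among them. Mtdh-/- 1 was at r = 0.919 with wild type 2. Mtdh-/- 3 resembled wild type 1 (Pearson r = 0.955 across 246 miRNAs, which are not independent replicates), while the wild-type libraries were at r = 0.870 with each other and Mtdh-/- 2 was at r = 0.832 with wild type 1.

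The labelled tissue was checked against marker miRNAs. All 25 miRNAs of a germ-cell list (the X-linked testis cluster and the miR-34 and miR-449 family) were counted, led by miR-34c-5p with 5461 to 34614 CPM in Mtdh-/- and 10846 to 49512 CPM in wild type. Their summed level was 62663 to 109777 CPM in the Mtdh-/- libraries and 135607 to 149663 CPM in the wild-type libraries, with no overlap. This holds for the sum and not for each miRNA in it, as miR-34c-5p itself overlapped, and it was not tested. Of the neural list 5 of 8 miRNAs were counted, led by miR-7a-5p (1525 to 2115 CPM in Mtdh-/-, 1757 to 3488 CPM in wild type). The other counted ones were miR-128-3p, miR-9-5p, miR-129-5p and miR-138-5p. Their means over the 5 libraries were 509, 444, 199 and 59.7 CPM in that order. The brain miRNA miR-124-3p, miR-9-3p (the other arm of the miR-9 hairpin) and miR-219-5p had 0 counts in all libraries. The summed level of this list was 2296 to 3961 CPM in Mtdh-/- and 2618 to 5166 CPM in wild type. Of the names in the sheet, those of smooth muscle and stroma (8 of 8, led by miR-10b-5p), Sertoli cells (2 of 2, miR-202-5p), endothelium (2 of 2, miR-126-3p), blood (6 of 6, miR-142-5p) and striated muscle (4 of 4, miR-1a-3p) were also counted. The summed level of smooth muscle and stroma was 267255 to 484909 CPM in Mtdh-/- and 330495 to 441563 CPM in wild type. Most of that sum was miR-10b-5p (mean 284498 CPM), the most abundant of all tested miRNAs. Whether miR-10b-5p came from stroma was not tested, so the sum is no measure of stroma. The summed level of Sertoli cells was 1020.5 to 1899 CPM in Mtdh-/- and 1113 to 2856 CPM in wild type. That of endothelium was 1460.2 to 11160 CPM in Mtdh-/- and 3177 to 5612 CPM in wild type, that of blood 265 to 522 CPM in Mtdh-/- and 352 to 559 CPM in wild type, and that of striated muscle 287 to 1795 CPM in Mtdh-/- and 1386 to 1626 CPM in wild type. These 5 lists overlapped between genotypes, and the germ-cell list was the single one of the 7 that did not. The part of these cell types in the levels below was not tested.

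The 8 miRNAs made up a small share of testis miRNA in both genotypes. Summed over the 8 miRNAs, the share of all miRNA counts was 0.128%, 0.241% and 0.263% in Mtdh-/- 1, 2 and 3, with 95% Wilson intervals of 0.120 to 0.137, 0.215 to 0.271 and 0.244 to 0.284. In wild type 1 and 2 it was 0.115% and 0.199%, with intervals of 0.101 to 0.131 and 0.187 to 0.212. These and all later intervals and limits cover counting error only. Mtdh-/- 1 lay close to wild type 1, wild type 2 was in the middle, and Mtdh-/- 2 and 3 were above both wild-type libraries. The summed level averaged 2109 ± 725 CPM in Mtdh-/- (SD, n = 3) and 1568 ± 594 CPM in wild type (SD, n = 2), which differed by less than the SD of either group. The difference came to 955, 388 and 279.8 CPM when Mtdh-/- 1, 2 or 3 was left out, and to 121 and 961 CPM when wild type 1 or 2 was left out, each list in the order of the libraries.

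miR-411-5p led the 8 miRNAs in every library. It stood at 615, 1123 and 1037 CPM in Mtdh-/- 1, 2 and 3, and at 373 and 929 CPM in wild type 1 and 2. Mtdh-/- 2 and 3 were highest, wild type 1 was lowest, and Mtdh-/- 1 lay between the wild-type libraries, so the genotypes overlapped. By mean level over the 5 libraries it ranked 91st of 512 counted miRNAs. It held 48.0%, 46.5% and 39.4% of the counts of the 8 miRNAs in Mtdh-/- 1, 2 and 3, and 32.5% and 46.7% in wild type 1 and 2.

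**Figure D1:**
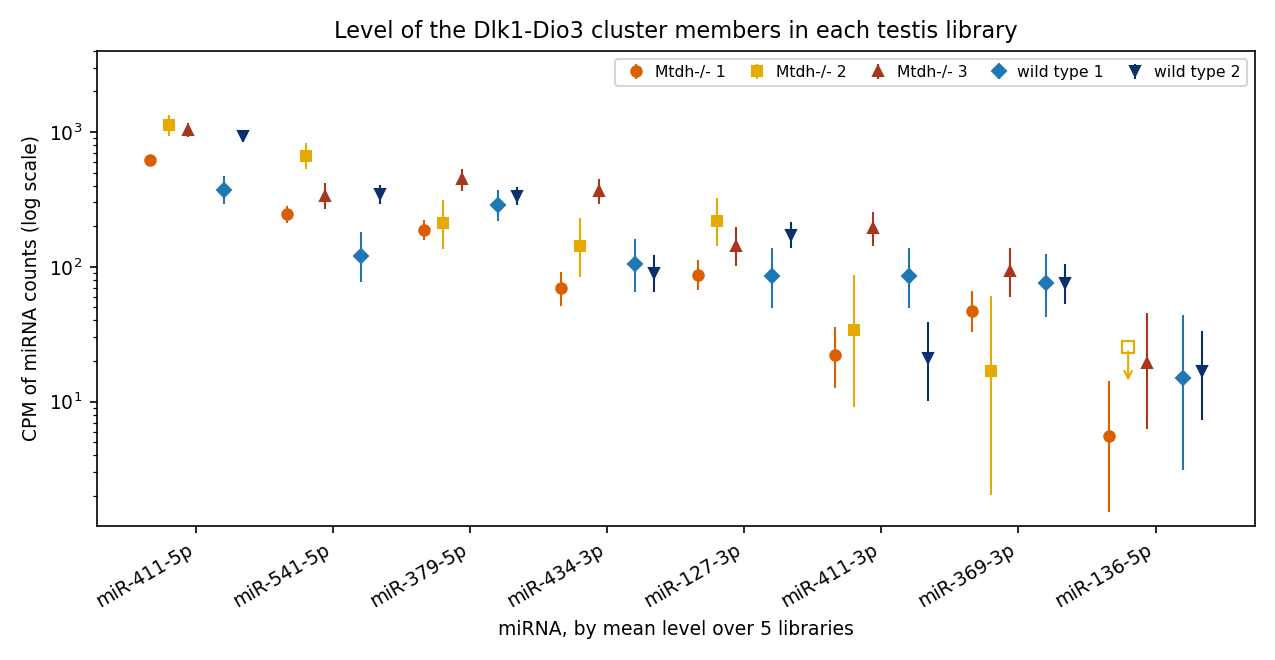
CPM of each of the 8 miRNAs (log axis) in the 3 Mtdh-/- libraries and, to their right, the 2 wild-type libraries, with exact 95% Poisson intervals of the counts. The open square with an arrow marks miR-136-5p in Mtdh-/- 2, which had 0 counts, at the level of 3 counts (25.3 CPM) in place of an interval, and in all 8 miRNAs the points of the genotypes overlap.

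The order of the levels was clear at the top, rested on few counts at the bottom and was not clear in the middle. Levels of different miRNAs are those found in the libraries, since each tag counts once whatever its length and the preparation can favour some sequences. The log2 ratio of miR-411-5p to the next miRNA, miR-541-5p, averaged 1.34 ± 0.36 (SD, n = 5, with 0.5 added to each count), higher in 5 of 5 libraries. miR-541-5p and miR-379-5p did not differ beyond their spread (0.08 ± 1.06, higher in 3 of 5), while miR-379-5p was above miR-434-3p in 5 of 5 libraries (1.11 ± 0.67). miR-434-3p and miR-127-3p could not be placed in order (-0.04 ± 0.89, higher in 2 of 5), and neither could miR-127-3p and miR-411-3p (1.41 ± 1.53, higher in 3 of 5) or miR-411-3p and miR-369-3p (-0.16 ± 1.23, higher in 3 of 5). miR-136-5p was last in 5 of 5 libraries, at a log2 ratio of 2.33 ± 0.35 below miR-369-3p. The margin could be small, with 8 counts against 10 of miR-411-3p in wild type 2. In Mtdh-/- 2 miR-136-5p had 0 counts against 2 of miR-369-3p.

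The miRNAs opposite Rtl1 were of middle to low level. miR-127-3p stood at 87.5, 219 and 143 CPM in Mtdh-/- 1, 2 and 3, and at 85.6 and 173 CPM in wild type 1 and 2. Its lowest values, in wild type 1 and Mtdh-/- 1, were nearly alike, and Mtdh-/- 2 was the only library of its genotype above wild type 2. miR-434-3p stood at 69.4, 143 and 364 CPM in Mtdh-/- 1, 2 and 3, and at 106 and 90.6 CPM in wild type 1 and 2. Mtdh-/- 1 was below both wild-type libraries and Mtdh-/- 3 was far above every other library, so the genotypes overlapped with a wide spread in Mtdh-/-. miR-136-5p had 4, 0 and 5 counts in Mtdh-/- 1, 2 and 3, and 3 and 8 counts in wild type 1 and 2. These are 5.55, 0 and 19.3 CPM in Mtdh-/- and 15.1 and 16.8 CPM in wild type, too few counts to tell any library from another.

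Both sides of the miR-379 and miR-411 pair were counted. miR-379-5p stood at 189, 211 and 445 CPM in Mtdh-/- 1, 2 and 3, and at 287 and 337 CPM in wild type 1 and 2. The wild-type libraries lay inside the range of the Mtdh-/- libraries, with Mtdh-/- 3 highest. miR-411-3p, the less used arm, stood at 22.2, 33.8 and 193 CPM in Mtdh-/- 1, 2 and 3, and at 85.6 and 21.1 CPM in wild type 1 and 2. Mtdh-/- 3 and wild type 1 were high and the other 3 libraries low, whatever the genotype, and the highest value was 9.19 times the lowest, the widest range among the 7 miRNAs counted in every library.

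In Mirg, miR-541-5p stood at 246, 667 and 337 CPM in Mtdh-/- 1, 2 and 3, and at 121 and 345 CPM in wild type 1 and 2. Wild type 1 was lowest and Mtdh-/- 2 highest, with wild type 2 close to Mtdh-/- 3. miR-369-3p stood at 47.2, 16.9 and 92.9 CPM in Mtdh-/- 1, 2 and 3, and at 75.5 and 75.8 CPM in wild type 1 and 2. The value of Mtdh-/- 2 rests on 2 counts (exact 95% Poisson interval 2.04 to 61.0 CPM), and the wild-type libraries were alike and inside the Mtdh-/- range.

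**Figure D2:**
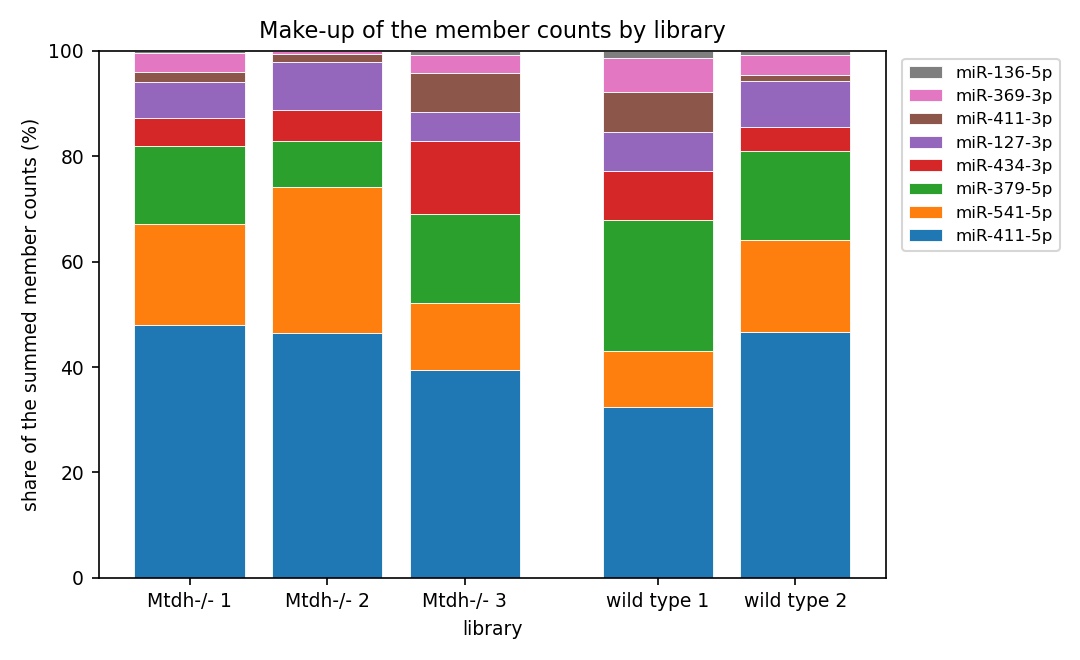
Stacked bars give the share of each of the 8 miRNAs in their summed counts (percent) for the 3 Mtdh-/- libraries and, to their right, the 2 wild-type libraries. miR-411-5p is the largest part of every bar (32.5% to 48.0%), and miR-411-3p takes 7.35% in Mtdh-/- 3 and 7.46% in wild type 1 against 1.73% or less in the other libraries.

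The make-up of the 8 miRNAs differed between libraries. The Mtdh-/- shares of miR-379-5p, miR-369-3p and miR-136-5p lay below both wild-type shares, by small margins or on few counts. With no background for such shares, this is not read as a result on genotype. miR-379-5p held 14.7%, 8.74% and 16.91% of the summed counts in Mtdh-/- 1, 2 and 3, and 25% and 16.95% in wild type 1 and 2. Mtdh-/- 3 and wild type 2 were nearly equal, so the genotypes were barely apart. miR-369-3p held 3.68%, 0.699% and 3.53% in Mtdh-/- 1, 2 and 3, and 6.58% and 3.81% in wild type 1 and 2, again with little between Mtdh-/- 1 and wild type 2. miR-136-5p held 0.433%, 0% and 0.735% in Mtdh-/- 1, 2 and 3, and 1.32% and 0.847% in wild type 1 and 2, on 8 counts or fewer in each library. The other 5 shares, that of miR-541-5p among them, overlapped. miR-541-5p held 19.2%, 27.6% and 12.8% in Mtdh-/- 1, 2 and 3, and 10.5% and 17.4% in wild type 1 and 2. Shares of 1 sum depend on each other and were not tested, and no such shares were worked out outside the 8 for comparison. In CPM none of the 8 was apart between genotypes, against 4.88% of the tested miRNAs for higher and 9.35% for lower. Likeness over the 5 libraries was measured as the root mean square difference of log2(CPM + 1) values, each miRNA centred on its mean. The nearest of the 28 pairs was miR-127-3p with miR-411-5p (0.28), which lie in different stretches, and the farthest was miR-136-5p with miR-541-5p (2.23), against a median of 1.02.

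Of the miRNAs outside the cluster with a mean of at least 100 CPM, 184 in number, the 5 with the pattern nearest to the sum of the 8 were miR-181b-5p (0.19 by the same measure), miR-129-5p (0.23), miR-378a-3p (0.26), miR-676-3p (0.27) and let-7i-5p (0.27). miR-181b-5p stood at 443, 802 and 739 CPM in Mtdh-/- 1, 2 and 3, and at 458 and 807 CPM in wild type 1 and 2. Like the sum of the 8 it was low in Mtdh-/- 1 and wild type 1. All of these miRNAs share the 5 libraries and their totals.

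The levels of the 8 miRNAs were summed within each of the 3 stretches. The 3 miRNAs opposite Rtl1 came to 162, 363 and 526 CPM in Mtdh-/- 1, 2 and 3, and to 206 and 280.1 CPM in wild type 1 and 2. miR-379-5p with both arms of miR-411 came to 826, 1367 and 1675 CPM in Mtdh-/- 1, 2 and 3, and to 745 and 1287 CPM in wild type 1 and 2. miR-541-5p and miR-369-3p came to 293, 684 and 429.5 CPM in Mtdh-/- 1, 2 and 3, and to 196 and 421 CPM in wild type 1 and 2. For these sums Mtdh-/- 2 and 3 were above both wild-type libraries, and Mtdh-/- 1 lay between them or, opposite Rtl1, below both. With all cluster miRNAs of a stretch summed, those between Rian and Mirg came to 882, 1367 and 1772 CPM in Mtdh-/- 1, 2 and 3, and to 765 and 1396 CPM in wild type 1 and 2, which put Mtdh-/- 2 below wild type 2. In the other 2 stretches Mtdh-/- 2 and 3 stayed above both wild-type libraries, at 405 and 565 CPM opposite Rtl1 against 247 and 349.6 CPM in wild type, and at 1013 and 801 CPM in Mirg against 393 and 743 CPM in wild type.

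The rest of the cluster, as far as the sheet holds it, was largely at the limit of detection. Of a list of 54 precursor names of the region, 30 were in the sheet, and the others have no values here. The 30 gave 60 mature miRNAs, of which 39 were counted in any library and 12 in all 5. Cluster counts came from 30, 13 and 24 miRNAs in Mtdh-/- 1, 2 and 3, and from 16 and 28 in wild type 1 and 2, which is the order of the library totals. The 8 miRNAs held 76.7%, 86.7% and 83.6% of the cluster's counts in Mtdh-/- 1, 2 and 3, and 81.7% and 79.6% in wild type 1 and 2.

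Of the other cluster miRNAs, miR-409-3p in an intron of Mirg was the most abundant. It stood at 143, 211 and 193 CPM in Mtdh-/- 1, 2 and 3, and at 111 and 236 CPM in wild type 1 and 2, the wild-type libraries lying on either side of the Mtdh-/- libraries. miR-410-3p stood at 40.3, 50.6 and 104 CPM in Mtdh-/- 1, 2 and 3, and at 45.3 and 29.5 CPM in wild type 1 and 2, with Mtdh-/- 3 highest. miR-382-5p had 35, 5 and 7 counts in Mtdh-/- 1, 2 and 3, and 2 and 18 counts in wild type 1 and 2. These 3 were the only miRNAs of the list beside 7 of the 8 with enough counts for a test. The next by mean level over the 5 libraries were miR-434-5p (25.6 CPM), miR-136-3p (22.9 CPM), miR-134-5p (16.8 CPM), known in rat neurons as a repressor of Limk1, miR-379-3p (14.3 CPM) and miR-299a-3p (12.4 CPM).

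**Figure D3:**
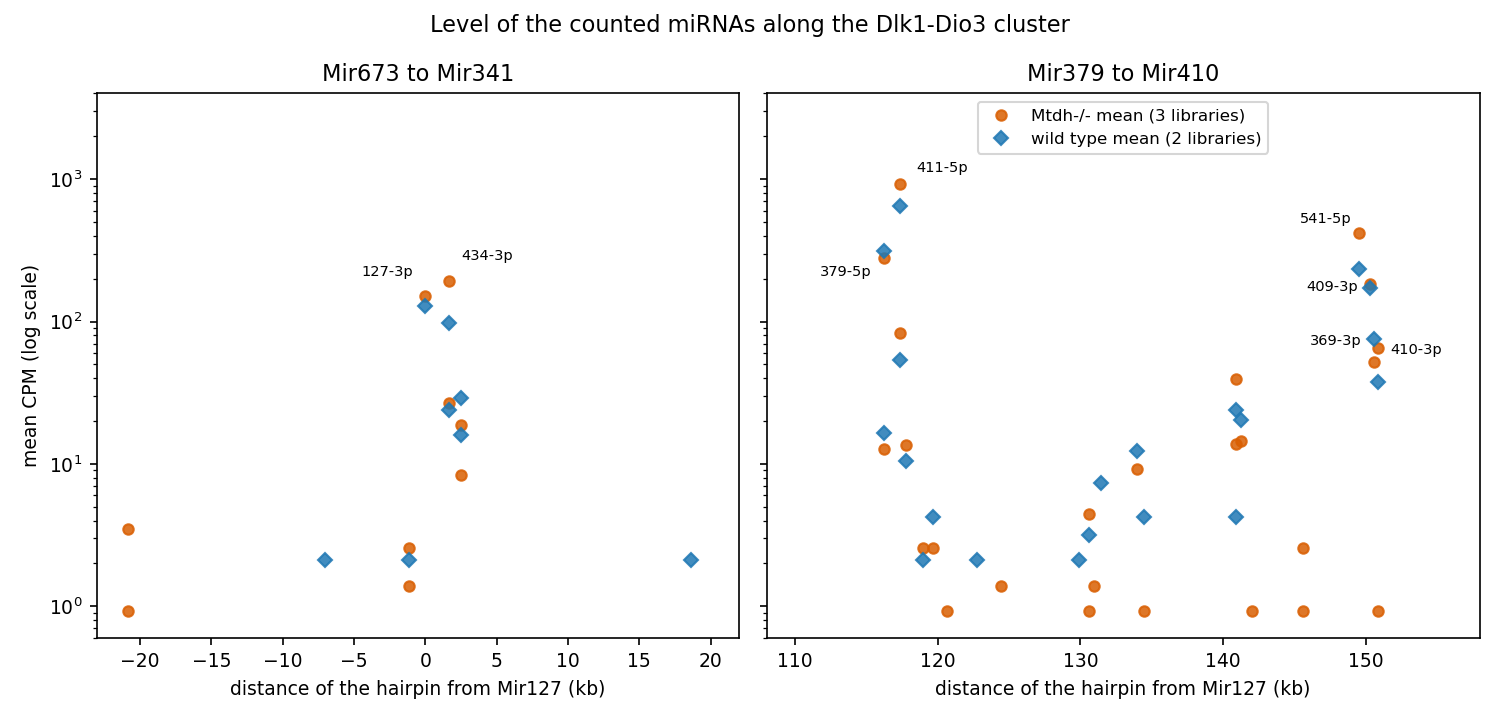
Mean CPM (log axis) of the counted cluster miRNAs by the distance of their hairpin from Mir127 (kb), circles for the mean of the 3 Mtdh-/- libraries and diamonds for the mean of the 2 wild-type libraries, with means of 0 not drawn. High levels stand at 3 places, Mir127 to Mir434, Mir379 to Mir411 and Mir541 to Mir410, and between them most miRNAs stay under 10 CPM in both genotypes.

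Arm use was steady in miR-379 and varied in miR-411. Of the counts of both arms of miR-411, the 5p arm held 96.5%, 97.1% and 84.3% in Mtdh-/- 1, 2 and 3, with Wilson intervals of 94.4 to 97.8, 92.7 to 98.9 and 79.9 to 87.9. In wild type 1 and 2 it held 81.3% and 97.8%, with intervals of 72.1 to 88.0 and 96.0 to 98.8. Mtdh-/- 3 and wild type 1 stood together, apart from the other 3 libraries beyond counting error, and each genotype had libraries of both kinds. The ratio of 5p to 3p counts was 27.7, 33.25 and 5.36 in Mtdh-/- 1, 2 and 3, and 4.35 and 44.1 in wild type 1 and 2. On the log2 scale, with 0.5 added to each count, it averaged 4.02 ± 1.39 in Mtdh-/- (SD, n = 3) and 3.74 ± 2.34 in wild type (SD, n = 2), a difference of 0.27 (two-sided exact permutation test over 10 splits, p = 0.9, where the smallest possible p is 0.1). The sign of this difference turned with single libraries: with 1 library left out it was -0.09, -0.16 and 1.08 for Mtdh-/- 1, 2 and 3, and -1.38 and 1.93 for wild type 1 and 2.

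The 5p arm of miR-379 held 94.4%, 100% and 94.3% of the counts of its hairpin in Mtdh-/- 1, 2 and 3, and 96.6% and 93.6% in wild type 1 and 2. The intervals of these shares overlapped, so the libraries that differed in miR-411 were not distinguishable in the hairpin next to it. In miR-434 the 3p arm dominated, and the 5p arm held 31.5%, 15% and 6.0% in Mtdh-/- 1, 2 and 3, and 16% and 23.2% in wild type 1 and 2. Mtdh-/- 3 (Wilson interval 2.78 to 12.5) lay under Mtdh-/- 1 (22 to 42.9), with the wild-type libraries between them. For miR-136 the 3p arm had more counts in every library but Mtdh-/- 3. The 5p arm had 4 of 27, 0 of 2 and 5 of 7 counts in Mtdh-/- 1, 2 and 3, and 3 of 7 and 8 of 26 counts in wild type 1 and 2. The 7 counts of Mtdh-/- 3 (Wilson interval 35.9 to 91.8) are too few to tell which arm led there. miR-127, miR-541 and miR-369 were counted from 1 arm only.

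**Figure D4:**
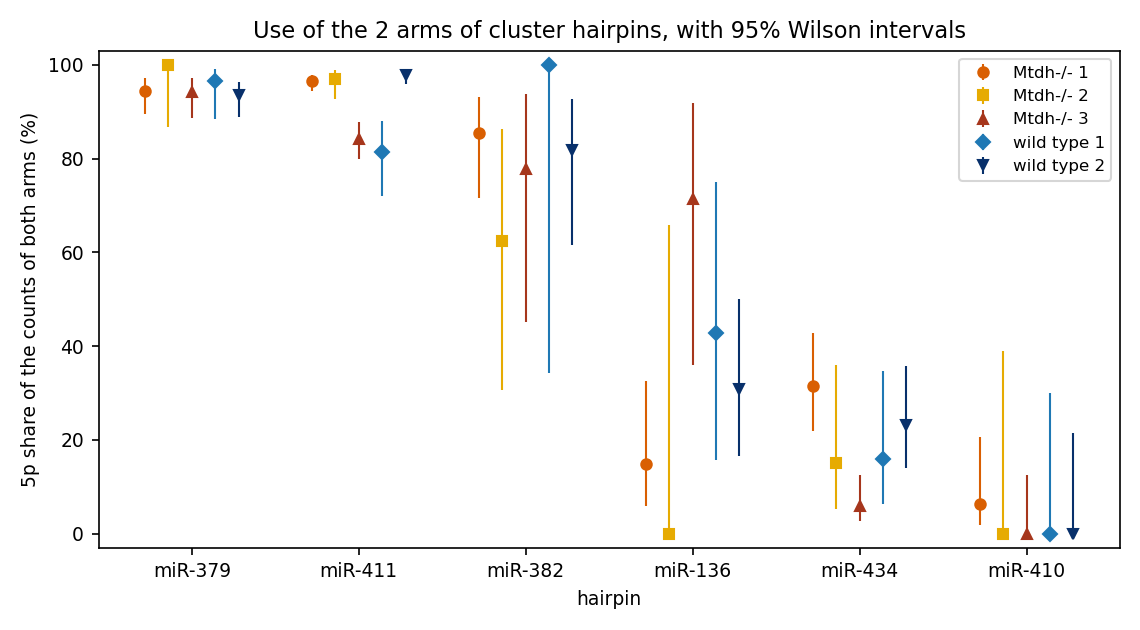
Share of the 5p arm (percent) in the counts of both arms of 6 cluster hairpins, for the 3 Mtdh-/- libraries and, to their right, the 2 wild-type libraries, with 95% Wilson intervals. For miR-411, Mtdh-/- 3 (84.3%) and wild type 1 (81.3%) lie below the other 3 libraries (96.5% to 97.8%), while miR-379 stays at 93.6% or more in each library.

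The most abundant sequence of each miRNA had the seed of the mature form. For each of the 8 miRNAs the most abundant sequence in the raw sheet began at the first base of the mature form, so its seed was as printed above. For miR-136-5p, miR-411-3p and miR-434-3p it was 1 base shorter at the 3′ end, and for the other 5 it was the mature sequence itself. The starts of the other isoforms were not analysed here. Over all libraries, the most abundant sequence held 90.0% of the counts of miR-136-5p, 82.5% of miR-411-3p, 58.6% of miR-379-5p, 55.0% of miR-369-3p, 49.96% of miR-411-5p, 43.1% of miR-127-3p, 35.0% of miR-541-5p and 33.3% of miR-434-3p. The median over the 246 tested miRNAs was 49.5% (quartiles 37.1% and 63.7%). In miR-411-5p the share was 54.2%, 34.6% and 42.2% in Mtdh-/- 1, 2 and 3, and 33.8% and 57.8% in wild type 1 and 2, so it was high in the 2 deepest libraries of either genotype. In miR-541-5p it was 24.9%, 45.6% and 26.4% in Mtdh-/- 1, 2 and 3, and 54.2% and 42.7% in wild type 1 and 2, where Mtdh-/- 2 stood with the wild-type libraries.

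The comparison of genotypes asked which of these miRNAs differed in testes without exon 3 of Mtdh. The test was that of edgeR (quasi-likelihood test, p-values adjusted by Benjamini-Hochberg over 246 miRNAs). Of the 8, 7 were tested, and 0 of the 7 were called higher or lower in Mtdh-/-, against 0% of all tested miRNAs. At an unadjusted p under 0.05 there were 0 of the 7 and 7 of the 246. The coefficient of variation between libraries of a genotype in the edgeR fit was 0.70. The median SE of a log2 fold change was 0.77. With so wide a spread, the lack of calls does not show that levels were equal. DESeq2 called 0 of 512 (19 at an unadjusted p under 0.05, 0 of them among the 8), and limma, fitted to the normalized values of the authors, called 0 of 246, with 4 at an unadjusted p under 0.05 and 0 of these among the 7. None of the 8 had every Mtdh-/- library above or below both wild-type libraries, against 4.88% of the tested miRNAs for higher and 9.35% for lower. miR-136-5p passed no minimum count and had no test in this fit.

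Of the 7 tested, 5 had fold changes above 0, against 55.7% of all tested miRNAs, and their median log2 fold change was 0.59, against 0.19 for all. miR-434-3p was at 0.99 ± 0.79 (log2 fold change ± SE, adjusted p = 0.867), averaging 192 ± 153 CPM in Mtdh-/- (SD, n = 3) and 98.1 ± 10.7 CPM in wild type (SD, n = 2). Without Mtdh-/- 3 it was at -0.05. miR-541-5p was at 0.98 ± 0.63 (adjusted p = 0.867), averaging 416 ± 222 CPM in Mtdh-/- and 233 ± 159 CPM in wild type, and miR-411-5p at 0.68 ± 0.55 (adjusted p = 0.867), averaging 925 ± 272 and 651 ± 393 CPM. These 2 kept a positive value with any 1 library left out (0.61 to 1.57 for miR-541-5p, 0.38 to 1.14 for miR-411-5p), and in each the difference was within the spread between libraries of 1 genotype: wild type 2 alone was 1.52 above wild type 1 on the log2 scale in miR-541-5p and 1.32 in miR-411-5p. With counts of the most abundant sequence miR-541-5p was at 0.46 and miR-411-5p at 0.40, and with counts of the exact mature sequence they were at 0.44 and 0.30.

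The other 4 were nearer to 0 or of no fixed sign. miR-411-3p was at 0.59 ± 1.2 (adjusted p = 0.949), averaging 83.2 ± 95.7 CPM in Mtdh-/- and 53.3 ± 45.6 CPM in wild type. Leaving out Mtdh-/- 3 put it at -1.10, leaving out wild type 2 at -0.25, and leaving out wild type 1 at 2.31. miR-127-3p was at 0.32 ± 0.61 (adjusted p = 0.949), averaging 150 ± 66.3 and 129 ± 61.6 CPM, and at -0.03 with upper-quartile scaling, which moved the median of all tested miRNAs by -0.34. miR-379-5p was at -0.03 ± 0.60 (adjusted p = 0.987), averaging 282 ± 142 and 312 ± 35.4 CPM, and was above 0 without Mtdh-/- 1 (0.02), without Mtdh-/- 2 (0.18) or without wild type 1 (0.15), and at -0.65 without Mtdh-/- 3. miR-369-3p was at -0.33 ± 0.90 (adjusted p = 0.951), averaging 52.3 ± 38.3 and 75.7 ± 0.213 CPM, and at 0.05 without Mtdh-/- 2. In a fit with no minimum count, miR-136-5p was at -0.73 ± 1.97 (edgeR adjusted p = 0.959), averaging 8.30 ± 9.96 and 15.98 ± 1.23 CPM.

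**Figure D5:**
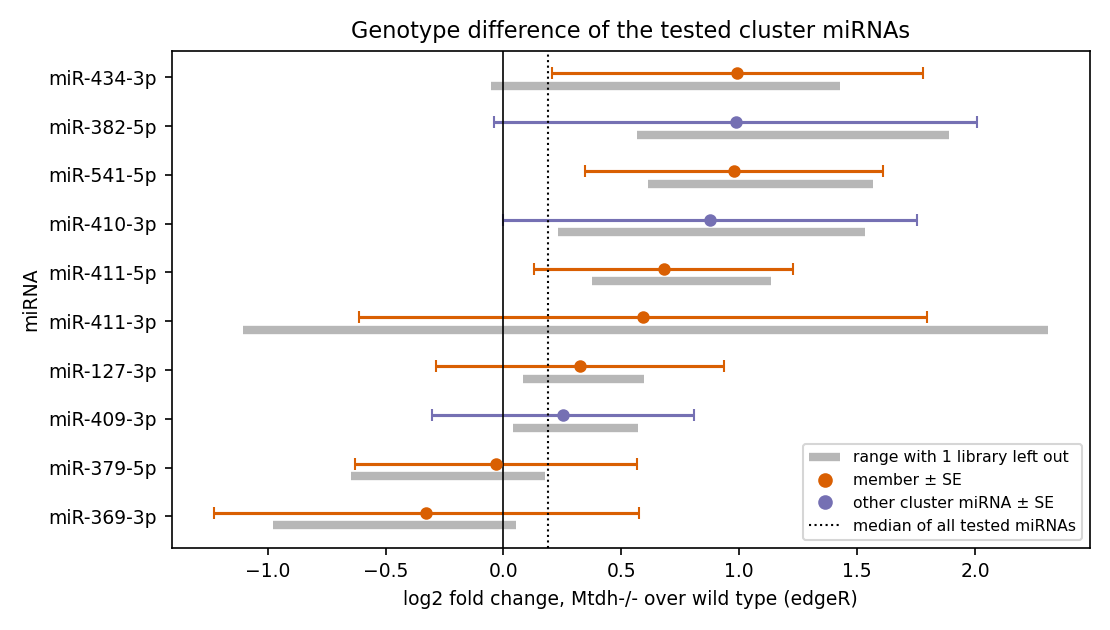
Log2 fold change of Mtdh-/- over wild type for the 10 tested cluster miRNAs, points with SE from edgeR and grey bars for the range with 1 library left out. The dotted line is the median of all tested miRNAs (0.19), and the bars of miR-434-3p, miR-411-3p, miR-379-5p and miR-369-3p cross 0.

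With miR-382-5p (0.98 ± 1.03, edgeR adjusted p = 0.867), miR-410-3p (0.88 ± 0.88, 0.867) and miR-409-3p (0.25 ± 0.56, 0.949), 10 miRNAs of the cluster list were tested, of which 8 had fold changes above 0 and 0 were called in either direction. Their median was 0.64, and it was 0.04 without Mtdh-/- 3. Germ-cell miRNAs, whose summed level did not overlap between genotypes, enter the same library totals, and their part in these fold changes was not tested.

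The authors' deposited tables compared each Mtdh-/- library, and groups of them, with the same 2 wild-type libraries. They list miRNAs by the ratio of the authors' normalized values of the most abundant sequence, with no spread for single libraries. For Mtdh-/- 2 the authors' deposited table lists miR-434-3p (ratio 2.67) and miR-541-5p (2.63) as higher, 2 of the 8, where 20.9% of 531 counted miRNAs were listed, and miR-136-5p (0.400) and miR-369-3p (0.175) as lower, where 16.4% were listed. For Mtdh-/- 3 the authors' deposited table lists miR-434-3p (2.81) and miR-411-3p (2.46) as higher, where 8.29% were listed, and none of the 8 as lower, where 10.2% were listed. For Mtdh-/- 1 the authors' deposited table lists none of the 8, where 5.27% were listed as higher and 16.2% as lower.

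Of the authors' deposited tables for groups of libraries, that of Mtdh-/- 1 and 2 lists miR-136-5p as lower (ratio 0.5, authors' p = 0.0434, with 2.64% of miRNAs listed as lower). The authors' deposited table for Mtdh-/- 2 and 3 lists miR-434-3p as higher (2.74, authors' p = 0.00261, with 0.565% listed as higher and 1.51% as lower). The authors' deposited tables for Mtdh-/- 1 and 3 (1.88% listed as lower) and for all 3 Mtdh-/- libraries (1.69% listed as lower) list none of the 8. In the raw counts miR-136-5p had 4 and 0 counts in Mtdh-/- 1 and 2 against 3 and 8 in wild type, and the miR-434-3p grouping left out Mtdh-/- 1, which lay below both wild-type libraries.

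For miR-434-3p the sheets differ in the sequence they report. The most abundant sequence in the raw sheet lacked the last base of the mature form, while that in the normalized sheet, on which the ratios rest, was the full mature sequence. The raw sheet's sequence had 20, 6 and 26 counts in Mtdh-/- 1, 2 and 3, and 4 and 19 in wild type 1 and 2. The normalized sheet's sequence had normalized values of 16, 86 and 91 in Mtdh-/- 1, 2 and 3, and 24 and 28 in wild type 1 and 2. Both forms have the same seed, and for both Mtdh-/- 3 was the highest library.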

How the data were processed

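Small RNA was measured in 5 testis libraries. The submitters' processing notes name Novoalign 2.07.11, while the sources used here do not give the genome build, trimming or counting rules. The deposited raw sheet holds, per the file headers, whole counts of tags for every pair of mature miRNA and precursor: for all isoforms, for the most abundant sequence and for the exact mature sequence. The smallest count above 0 was 2, and blanks were read as 0. A second deposited sheet holds the authors' normalized tags, a score rounded to whole numbers. The authors' deposited tables give a fold ratio with 10 added to each value, and p-values, whose test the sources used here do not give. Another 226 columns of per-library values were not used.

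Counts of all isoforms were used. Of 846 lines, 110 for further precursors of a mature miRNA were left out. Another 19 miRNAs (0 of the 8) had the same most abundant sequence as a miRNA that was kept. They were left out too, without adding their counts to it, which left 717, with 512 counted. Counts were tested in R 4.3.3 with edgeR 4.0.16 (robust quasi-likelihood test, TMM, filterByExpr on genotype) over 246 miRNAs, calling a miRNA at a Benjamini-Hochberg adjusted p under 0.05. Simulated counts with known changes were run through it first, and their outcome is not reported here. Alternatives were DESeq2 1.42.0, limma 3.58.1 on log2 of the authors' values with 10 added, other scalings, no minimum count, other count columns, identical sequences kept apart, single libraries left out and a replicate block.

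The miRNAs and lists were chosen with earlier results of these data known. By rule, the text names the 8, the 8 other cluster miRNAs with the highest mean CPM, the 5 nearest patterns outside the cluster, the nearest and farthest pair, and the leading miRNA of each marker list. Outside the rule, and chosen after seeing values, are the miRNAs of the neural list other than its leader, and the 5 called without a minimum count. Marker names were matched to the sheet with or without a letter suffix.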

Additional observations from a re-analysis of the deposited data

How the results depend on the processing

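The fold changes of miR-411-5p and miR-541-5p stayed above 0 in all alternatives run, though they came down to 0.30 and 0.44 with counts of the exact mature sequence, and none of the 8 was called in any. With upper-quartile scaling miR-127-3p was at -0.031. With a replicate block on the numbers in the titles, miR-411-3p was at -0.54. miR-434-3p (0.22), miR-369-3p (-1.09) and miR-379-5p (-0.44) kept their sign but moved by over 1.5 times, and the other 3 tested kept theirs with smaller moves. Number 3 occurs in Mtdh-/- alone, so with the block Mtdh-/- 3 does not inform the genotype difference. The difference in summed level was 279.8 CPM both with the block and without Mtdh-/- 3. Same-numbered libraries deviated from their group means with r = -0.44 for number 1 and 0.10 for number 2, over 2 shared numbers, so the numbers were not taken to pair the libraries. Without a minimum count 5 of 512 miRNAs were called, miR-17-3p, miR-199a-5p and miR-214-3p higher and miR-191-3p and miR-883b-5p lower, none in the cluster. The summed level of the 8 was 1499 CPM higher in Mtdh-/- when the 10 most abundant miRNAs were left out of the totals, as smaller totals raise all levels. With 1 library left out, the log2 fold change ranged from -0.98 to 0.053 for miR-369-3p, from -0.65 to 0.18 for miR-379-5p, from -1.10 to 2.31 for miR-411-3p and from -0.053 to 1.43 for miR-434-3p. The log2 ratio of the miR-411 arms ranged from -1.38 to 1.93. Without wild type 1 or 2, the lone wild-type library is assumed to vary like the Mtdh-/- libraries. The cause of these changes was not tested.

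Depth limits the low miRNAs most: 3 counts in Mtdh-/- 2 are 25.3 CPM, above the mean level of miR-136-5p (11.4 CPM). The sheet's column for the exact mature sequence was blank for 44 of 218 miRNAs whose most abundant sequence was the mature one, among them miR-369-3p, so it was read only as an alternative.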
